A study of Mus musculus with 15 samples.

Results

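Fatty acid synthesis builds saturated fatty acids from acetyl-CoA, and desaturases and elongases then convert them to the unsaturated and longer fatty acids of membranes and lipid stores. The measurements here cover 10 genes of this pathway in 15 mouse tumors: Srebf1, Acly, Acss2, Acaca, Fasn, Elovl6, Scd1, Scd2, Fads1 and Fads2. They were chosen by name for their place in the pathway, out of 32543 gene names in the count table, and all 10 were among the 15494 genes that passed the filter on low counts. RNA sequencing had been performed on subcutaneous WEHI-164 tumors, a mouse fibrosarcoma line, grown in wild-type (WT) female BALB/c mice. Tumors were untreated on day 0 or had received intratumoral poly(I:C), a double-stranded RNA analog sensed by Toll-like receptor 3, and were harvested on day 1, 3, 5 or 7, with 3 tumors on each day. The labels state 1 µg in 25 µL each day for a planned 6 doses, and the study's methods also give 1 µg daily. A figure legend of the study gives a larger daily amount for this course, so the dose is uncertain. The labels give no age. They call the day 0 tumors untreated, as the study's methods do, and name no vehicle-injected tumors. Figure legends of the study describe a vehicle-treated comparison group instead. Poly(I:C), the injection itself and elapsed time therefore cannot be told apart. Each tumor is a single library of a mixed tissue.

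In mammalian cells the transcription factor SREBP1, encoded by Srebf1, is made as a membrane-bound precursor that is cleaved and travels to the nucleus, where it activates most genes of fatty acid synthesis. Its close relative SREBP2 mainly drives cholesterol synthesis, and the oxysterol receptor LXR can raise Srebf1 transcription itself. Many tumor cells rely on fatty acid synthesis for membranes, and macrophages and T cells adjust the same genes on activation.

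Sequence upstream of the start of transcription is shown for 3 members because they stand for the regulator, the supply of acetyl-CoA and the synthase. RefSeq promoter windows (GRCm38.p6) existed for 7 of the 10 members, with 9 windows in all because Srebf1 has several starts. Each sequence below is 200 bases long, ends at the base before the start, and is written 5′ to 3′ on the gene's own strand, the minus strand in each case. Capitals mark CCAAT boxes (CCAAT) and GC boxes (GGGCGG), each searched on both strands.
Srebf1, first start, chr11:60222582-60222781: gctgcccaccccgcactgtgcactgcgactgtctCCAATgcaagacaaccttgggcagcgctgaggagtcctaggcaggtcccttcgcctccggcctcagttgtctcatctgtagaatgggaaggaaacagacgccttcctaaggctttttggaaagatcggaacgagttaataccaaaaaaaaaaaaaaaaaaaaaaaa
Acly, chr11:100528001-100528200: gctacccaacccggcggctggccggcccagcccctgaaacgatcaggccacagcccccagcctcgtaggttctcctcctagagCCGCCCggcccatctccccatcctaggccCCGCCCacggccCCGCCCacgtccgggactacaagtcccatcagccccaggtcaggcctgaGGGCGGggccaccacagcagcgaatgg
Fasn, chr11:120824548-120824747: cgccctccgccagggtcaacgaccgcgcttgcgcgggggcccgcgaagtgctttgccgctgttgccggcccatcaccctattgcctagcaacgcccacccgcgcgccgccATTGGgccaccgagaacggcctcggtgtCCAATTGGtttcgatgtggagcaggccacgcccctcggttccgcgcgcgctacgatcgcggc

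The Fasn sequence held 3 CCAAT matches that began 90, 62 and 59 bases upstream of the start, and the last 2 overlapped. The Acly sequence held 4 GC boxes, and the Srebf1 sequence had 1 CCAAT box. Among the 9 windows of members, 5 held CCAAT and 5 held GGGCGG, against 37.4% and 35.7% of all 32851 RefSeq windows of the same length. The sterol response element searched, TCACNCCAC on both strands, was found in 0 of the 9 windows and in 1.24% of all windows, and the E-box CACGTG in 0 of the 9 and in 7.15%. These letter matches describe the windows only.

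Sequencing depth was 23.7 to 31.9 mega-counts (M, estimated counts) per tumor, and the 10 members together took 0.109 to 0.296% of them. Values below are CPM, each tumor's counts divided by its TMM-adjusted total and put on a per-mega-count scale, and the error of a mean is the SD of 3 tumors. A single tumor, day 3 replicate 1, stood apart from the other 14. On the first principal component of log2 CPM it lay at 144, while the others lay between -77.0 and 45.1. Markers of other tissues were high in it. Adipoq, made by adipocytes, was at 14.98 CPM in it and at no more than 2.43 CPM elsewhere, and the muscle creatine kinase Ckm was at 296 CPM against no more than 14.6 CPM. Fold changes of the members on day 3 and medians of gene lists are therefore given with and without this tumor. Of 12 fibrosarcoma and mesenchymal markers, all 12 were detected, and their summed level was 9819 to 34307 CPM. Fewer cells of a type and less RNA per cell cannot be told apart in such bulk tissue.

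Nearly all members had their lowest mean on day 3, Acss2 being the exception. By fitted mean, 9 of the 10 were below day 0 then, as were 52% of all genes tested, and the 3 tumors of day 3 lay wholly below the 3 of day 0 for 7 members, against 19% of all genes. The difference in fitted level was greatest for Fads2, Elovl6 and Scd2 and smallest for Fads1 and Srebf1. None of these differences passed the test: edgeR called 0 of 10 members on day 3 at an adjusted p under 0.05, and 0% of all genes. The lowest edgeR adjusted p of any gene on day 3 was 0.115. Genes of different unadjusted edgeR p shared it, such as Fads2 (0.0026) and Elovl6 (0.011). At an unadjusted p under 0.05, 5 members were lower, Acly, Scd1, Scd2, Elovl6 and Fads2, against 11.7% of all genes. The number called depended on the tool. DESeq2 called 3 members lower, Scd2, Elovl6 and Fads2, against 3.84% of genes, and limma voom with sample weights called Fads2, against 2.99%. The median log2 fold change of the 10 members was -0.53, against -0.02 over all genes tested. Without day 3 replicate 1 it was -0.29, with all 10 members lower by fitted mean, and for 8 both remaining tumors lay below all of day 0 (22.9% of genes). Then 3 members were lower at an unadjusted p under 0.05, Scd2, Elovl6 and Fads2 (6.52% of genes), and edgeR, DESeq2 and limma voom each called 0 members lower, against 0%, 0.278% and 1.27% of genes.

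**Figure D1:**
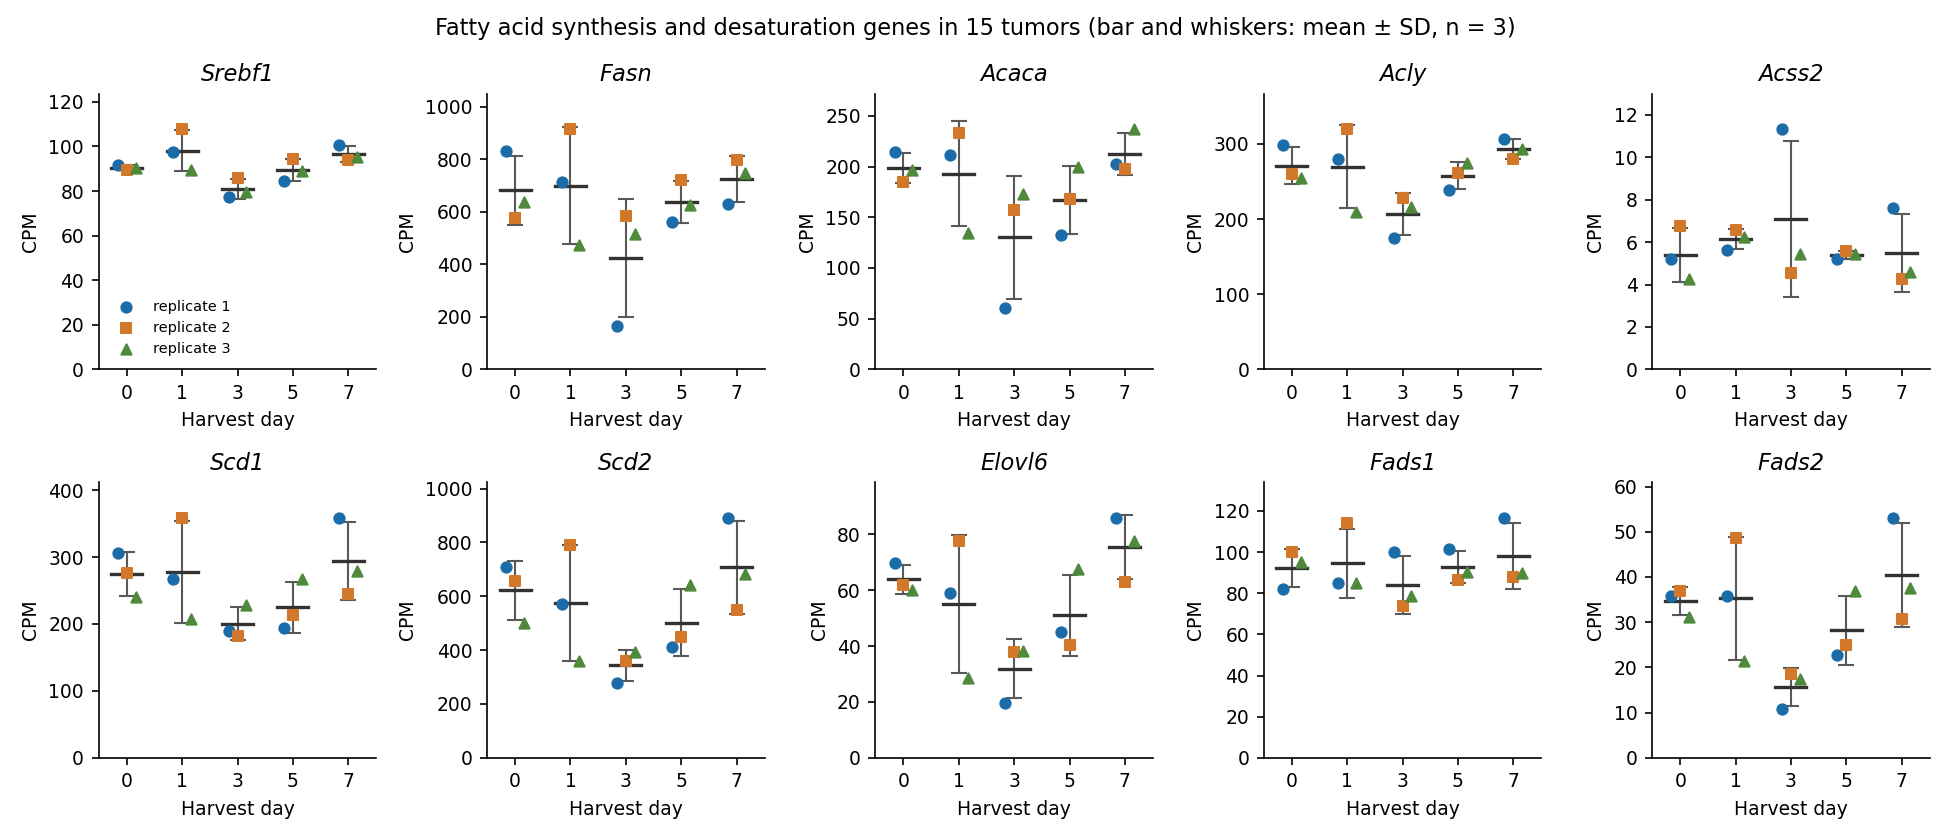
Level of each of the 10 genes (CPM, vertical axis from 0) against harvest day, with 1 point for each tumor and bar and whiskers for the mean and SD of 3 tumors. Day 3 holds the lowest mean for every gene except Acss2, and day 3 replicate 1 lies far below its companions for Fasn and Acaca.

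Srebf1 (GRCm38 chr11:60199089-60222581, minus strand) lay between 77.5 and 108 CPM in all 15 tumors. Levels of Srebf1 were 91.7, 89.4 and 90.4 CPM on day 0 and 97.4, 108 and 89.4 CPM on day 1. They were 77.5, 86.0 and 79.4 CPM on day 3, then 84.5, 94.4 and 89.2 CPM on day 5 and 101, 94.1 and 95.1 CPM on day 7. The day 3 tumors all lay below the day 0 tumors, and the day 7 tumors all lay above them. The log2 fold change on day 3 was -0.16 ± 0.08 (SE, edgeR adjusted p = 0.201), and -0.13 ± 0.08 without day 3 replicate 1. On day 7 it was 0.09 ± 0.08 against day 0. Srebf1 was the only member whose day 7 tumors did not overlap those of day 0, a pattern that 5.02% of all genes showed in the upward direction. Its transcript level does not report how much of the protein is cleaved.

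Both enzymes that supply acetyl-CoA were measured. Acly, ATP citrate lyase, makes it from citrate in the cytosol (chr11:100476353-100528000, minus strand). The untreated tumors had 299, 260.2 and 254 CPM of Acly. Treated tumors had 279.5, 319 and 209.8 CPM on day 1, 175, 228 and 217 CPM on day 3, 238, 261 and 274 CPM on day 5 and 307, 280.1 and 293 CPM on day 7. Each day 3 tumor was below each day 0 tumor, though day 3 replicates 2 and 3, at 228 and 217 CPM, were above day 1 replicate 3. Its log2 fold change on day 3 was -0.39 ± 0.15 (edgeR adjusted p = 0.124), and -0.28 ± 0.14 without day 3 replicate 1.

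Acss2 makes acetyl-CoA from acetate (chr2:155517948-155585724, plus strand) and was the scarcest member per kb of exon. Acss2 was at 5.19, 6.78 and 4.24 CPM in the day 0 tumors, at 5.65, 6.58 and 6.22 CPM on day 1, at 11.3, 4.56 and 5.45 CPM on day 3, at 5.20, 5.59 and 5.42 CPM on day 5, and at 7.61, 4.26 and 4.60 CPM on day 7. A single day 3 tumor, replicate 1, was high and the other 2 lay within the day 0 range. With it the log2 fold change on day 3 was 0.39 ± 0.33, and without it -0.11 ± 0.26. The exons of Acss2 overlap those of 3 neighbours, Ggt7, Acss2os and Gss. Of the 31-base stretches in Acss2 transcripts, 7.57% also occur in other genes, with 2.99% in Gss. The strand setting of the counting is not given in the sources used here, so the low count of Acss2 is uncertain.

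Acaca, acetyl-CoA carboxylase 1, makes malonyl-CoA in the committed step of the pathway (chr11:84129672-84401651, plus strand). Levels of Acaca were 214, 185 and 197 CPM on day 0 and 212, 233 and 135 CPM on day 1. They were 61.0, 157 and 173 CPM on day 3, then 133, 168 and 199.7 CPM on day 5 and 203, 198 and 237 CPM on day 7. Day 3 replicate 1 had less than any other tumor, and all 3 day 3 tumors were below the day 0 tumors. On day 3 the log2 fold change was -0.61 ± 0.31 (edgeR adjusted p = 0.198). Without that tumor it was -0.26 ± 0.21. Other genes hold 33.5% of the 31-base stretches in Acaca transcripts, and the gene Gm5182 alone holds 31.7%. Gm5182 is not among the gene names with deposited counts, so whether reads were shared there is not known.

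Fasn, fatty acid synthase, assembles palmitate from malonyl-CoA (chr11:120805846-120824547, minus strand). The untreated tumors had 830.0, 577 and 636 CPM of Fasn. Treated tumors had 714, 913 and 472 CPM on day 1, 166, 585 and 517 CPM on day 3, 561, 721 and 625 CPM on day 5 and 628, 798 and 749 CPM on day 7. Day 3 replicate 1 again had the lowest level of all 15 tumors, and day 3 replicate 2 overlapped the day 0 range. For Fasn the fitted log2 difference on day 3 was -0.69 ± 0.37 (edgeR adjusted p = 0.208) and -0.30 ± 0.24 without day 3 replicate 1. Much of the Acaca and the Fasn difference thus rested on a single tumor.

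Elovl6 elongates palmitate to stearate (chr3:129532355-129638495, plus strand). Elovl6 was at 69.7, 61.9 and 59.9 CPM in the day 0 tumors, at 59.1, 77.5 and 28.4 CPM on day 1, at 19.6, 37.9 and 38.2 CPM on day 3, at 44.9, 40.6 and 67.5 CPM on day 5, and at 85.8, 63.1 and 77.6 CPM on day 7. All day 3 tumors were below all day 0 tumors. So were day 1 replicates 1 and 3 (59.1 and 28.4 CPM) and day 5 replicates 1 and 2 (44.9 and 40.6 CPM). On day 3 its log2 fold change was -1.0 ± 0.34 (edgeR adjusted p = 0.115). It was -0.74 ± 0.33 without day 3 replicate 1.

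Scd1 and Scd2 are stearoyl-CoA desaturases, which place the first double bond in stearate and palmitate. They lie 87.6 kb apart on chromosome 19 (Scd2 at chr19:44293674-44306864 on the plus strand, Scd1 at chr19:44394455-44407879 on the minus strand). Levels of Scd1 were 306, 276 and 240.1 CPM on day 0 and 267, 358 and 207 CPM on day 1. They were 189.9, 183 and 229 CPM on day 3, then 194, 213 and 267 CPM on day 5 and 358, 244 and 278 CPM on day 7. Day 3 replicates 1 and 2 had less Scd1 than any other tumor. The untreated tumors had 709.9, 655 and 501 CPM of Scd2. Treated tumors had 570.3, 792 and 359.9 CPM on day 1, 279, 359 and 393 CPM on day 3, 411, 449 and 643 CPM on day 5 and 891, 549 and 684 CPM on day 7. For both genes every day 3 tumor was below every day 0 tumor. On day 3 Scd1 had a log2 fold change of -0.45 ± 0.21 (edgeR adjusted p = 0.162). Scd2 had -0.86 ± 0.28 (edgeR adjusted p = 0.115). Leaving out day 3 replicate 1 gave -0.41 ± 0.23 for Scd1 and -0.73 ± 0.31 for Scd2. Scd1 and Scd2 share 8.18% and 6.81% of their 31-base stretches with other genes, chiefly with Scd3, which had no more than 68 counts in any tumor.

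Fads1 and Fads2, the delta-5 and delta-6 desaturases of polyunsaturated fatty acids, lie 81.1 kb apart on opposite strands of chromosome 19 (Fads2 at chr19:10062765-10101746 on the minus strand, Fads1 at chr19:10182888-10196877 on the plus strand). Fads1 was at 82.0, 99.9 and 95.3 CPM in the day 0 tumors, at 84.9, 114 and 84.8 CPM on day 1, at 100.0, 73.6 and 78.6 CPM on day 3, at 102, 86.3 and 90.3 CPM on day 5, and at 117, 88.0 and 90.0 CPM on day 7. Fads1 tumors of day 3 overlapped those of day 0, and the log2 fold change was -0.14 ± 0.16 (edgeR adjusted p = 0.536), or -0.28 ± 0.16 without day 3 replicate 1. Levels of Fads2 were 35.8, 37.0 and 31.2 CPM on day 0 and 35.9, 48.5 and 21.4 CPM on day 1. They were 10.9, 18.6 and 17.4 CPM on day 3, then 22.7, 25.0 and 36.9 CPM on day 5 and 53.1, 30.7 and 37.6 CPM on day 7. All day 3 tumors were below all day 0 tumors, and below every tumor of the other days. The log2 fold change of Fads2 on day 3 was -1.15 ± 0.31 (edgeR adjusted p = 0.115), the lowest fitted value among the members, and -0.94 ± 0.32 without day 3 replicate 1.

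**Figure D2:**
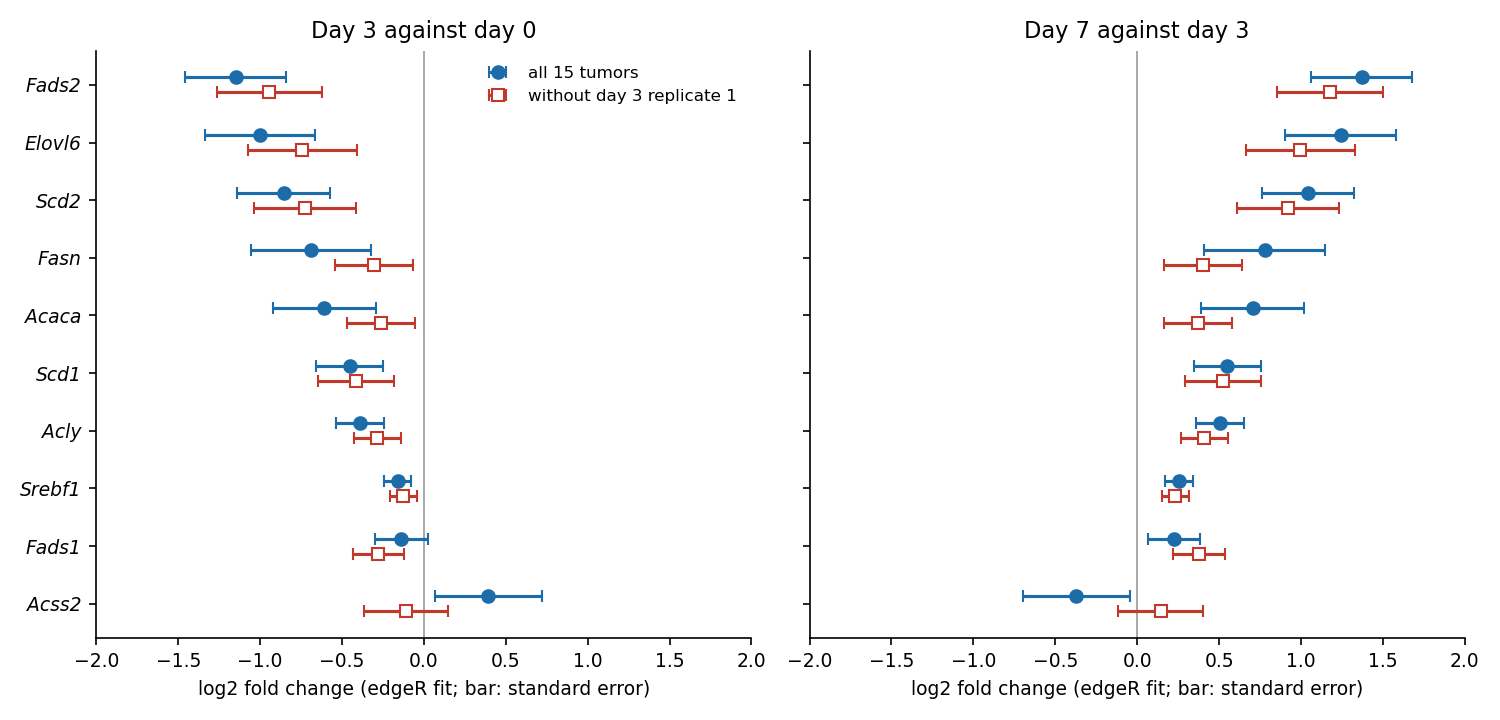
Fitted log2 fold change of each gene (horizontal axis, bars are standard errors) for day 3 against day 0 and day 7 against day 3, from all 15 tumors (filled circles) and without day 3 replicate 1 (open squares). Fads2, Elovl6 and Scd2 lie farthest from 0 in both panels, Fasn and Acaca move toward 0 without that tumor, and Acss2 crosses 0.

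Within each neighbouring pair of desaturase genes, the share of Fads2 and of Scd2 was lower on day 3. The log2 ratio of Fads2 to Fads1 within a tumor was -1.19, -1.43 and -1.61 in the day 0 tumors and -3.19, -1.98 and -2.17 in the day 3 tumors. By day 7 it was -1.13, -1.52 and -1.26. The day 3 tumors lay below both other groups, with day 3 replicate 1 the lowest. The log2 ratio of Scd2 to Scd1 was 1.21, 1.25 and 1.06 on day 0, 0.55, 0.97 and 0.78 on day 3, and 1.31, 1.17 and 1.30 on day 7. Here too the day 3 tumors lay below those of day 0 and day 7. Day 1 was not clear of day 3 for either ratio, and day 5 was not clear of it for Fads2 to Fads1. On day 1 the Fads2 to Fads1 ratio was -1.24, -1.23 and -1.98 and the Scd2 to Scd1 ratio was 1.10, 1.14 and 0.80, so that replicate 3 was level with the highest day 3 tumor for the first ratio and within the day 3 range for the second. Day 5 replicate 1 had a Fads2 to Fads1 ratio of -2.16, also within the range of day 3. The Scd2 to Scd1 ratio on day 5 was 1.08, 1.07 and 1.27, above every day 3 tumor. Both ratios were chosen with earlier results known and are given without a test.

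**Figure D3:**
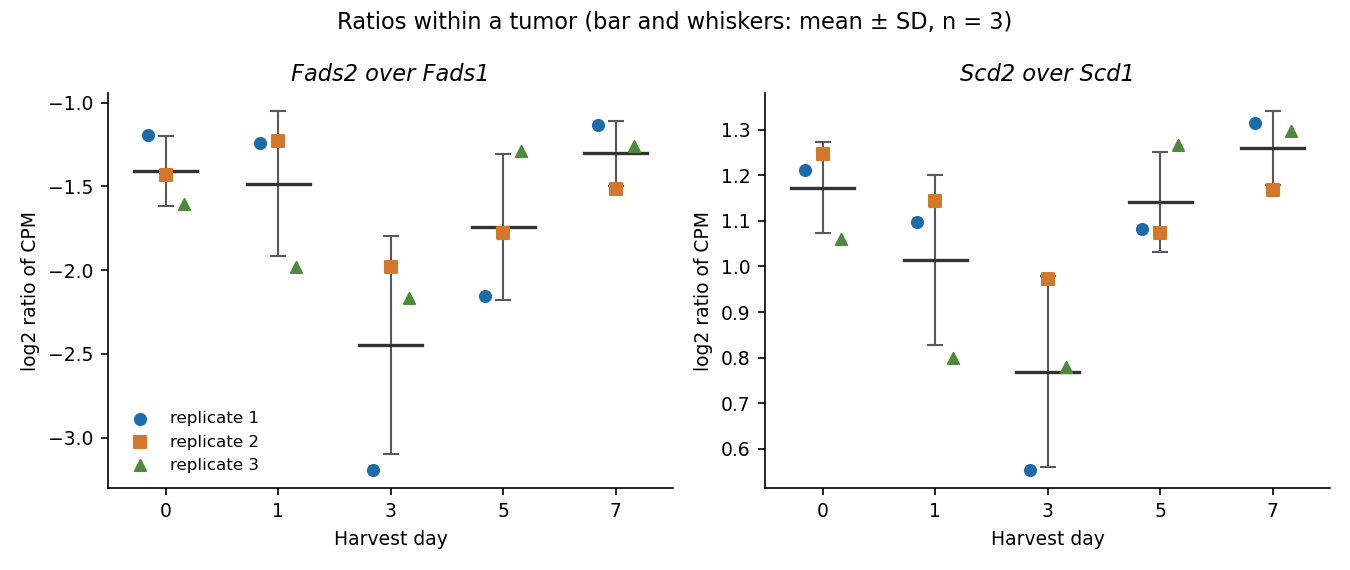
Log2 ratio of CPM within each tumor for Fads2 over Fads1 (left) and Scd2 over Scd1 (right) against harvest day, with 1 point for each tumor and bar and whiskers for the mean and SD of 3 tumors. On day 3 the mean ratio is -2.45 for the first pair and 0.77 for the second, below the day 0 means of -1.41 and 1.17.

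The direction of the members on day 1 depended on the tool, and that of their median on single tumors. EdgeR called 0 of 10 members (0% of all genes), with 6 higher and 4 lower by fitted mean, from -0.21 for Elovl6 to 0.19 for Acss2 on the log2 scale, and a median of 0.02. DESeq2 gave each member the same direction as edgeR. Limma voom with sample weights put all 10 above day 0, from 0.10 for Elovl6 to 0.33 for Fasn, and its lowest adjusted p among them was 0.244, for Srebf1. Its weight was 0.31 for day 1 replicate 3, against 1.30 and 2.80 for replicates 1 and 2. Leaving out day 1 replicate 3 moved edgeR's median to 0.17, and leaving out day 1 replicate 2 moved it to -0.20. The 3 day 1 tumors differed widely. Summed over the members they had 2325, 2969 and 1613 CPM, against 2109 to 2644 CPM on day 0. The lowest was replicate 3, which also had the highest summed interferon response list of the 15 tumors, 6165 CPM, against 2346 and 2501 CPM in its companions. Its T and NK cell markers summed to 286 CPM, against 78.7 and 107 CPM. The part of these cells in the members' levels was not tested.

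Most members had day 5 means between those of day 3 and day 0. EdgeR called 0 of 10 members on day 5 (0% of all genes), and 9 had a fitted level below day 0, as had 49.7% of all genes. Log2 fold changes ran from -0.32 for Elovl6 to 0.01 for Fads1, with a median of -0.18. No member had day 5 tumors wholly below those of day 0, against 10.8% of all genes. In day 5 replicate 3 Scd2 was at 643 CPM and Elovl6 at 67.5 CPM, both within their day 0 ranges, while replicates 1 and 2 were below these ranges.

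By fitted mean each member was slightly above its day 0 level on day 7. EdgeR called 0 of 10 members (0% of all genes), and all 10 fitted log2 fold changes were above 0, from 0.02 for Acss2 to 0.24 for Elovl6, with a median of 0.10. Of all genes, 44.4% were higher by the same fitted measure. Set against day 3, 9 of the 10 members were higher on day 7, against 51.6% of all genes, with a median log2 difference of 0.63 against 0.02 over all genes. The day 7 tumors lay wholly above the day 3 tumors for 8 members, all but Acss2 and Fads1, against 14.6% of all genes. Fads2 differed by 1.37 ± 0.31, Elovl6 by 1.24 ± 0.34 and Scd2 by 1.04 ± 0.28 on the log2 scale. Each had an edgeR adjusted p of 0.0832, the lowest of any gene in that comparison and shared by genes of different unadjusted p. EdgeR again called 0 members (0% of all genes), and 7 were higher at an unadjusted p under 0.05, against 12.9% of all genes. DESeq2 called 5 members higher, Srebf1, Acly, Scd2, Elovl6 and Fads2, against 5.91% of genes. Limma voom with sample weights called these 5 and Scd1, against 7.39%. Without day 3 replicate 1 the median was 0.41 and all 10 members were higher on day 7 by fitted mean. DESeq2 then called 0 members higher, against 0.168% of genes, and limma voom called 4 higher, Acly, Scd2, Elovl6 and Fads2, against 4.4% of genes. The comparisons of day 3 with day 0 and with day 7 share the day 3 tumors.

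The joint test of the 4 treated days against day 0 called 0 of 10 members by edgeR (0% of all genes). At an unadjusted p under 0.05 there were 5, Srebf1, Acly, Scd2, Elovl6 and Fads2, against 16.2% of all genes. DESeq2 called Fads2 in the joint test, against 7.63% of genes. Limma voom with sample weights called 6 members, Srebf1, Acly, Scd1, Scd2, Elovl6 and Fads2, against 24.9%.

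Levels differed widely between members on day 0 when set per length of merged exon. Scd2 was highest at 114 ± 19.9 CPM per kb (SD, n = 3), followed by Fasn at 62.2 ± 12.1, Scd1 at 56.1 ± 6.78 and Acly at 51.4 ± 4.61, of which the last 3 lay within their spread of one another. Fads1 at 19.2 ± 1.93 and Srebf1 at 16.1 ± 0.21 came next. Acaca at 11.6 ± 0.87, Fads2 at 10.5 ± 0.92 and Elovl6 at 9.93 ± 0.81 followed, each overlapping its neighbour within the SD, and Acss2 was lowest at 0.53 ± 0.13. The per-length scale treats every annotated exon as transcribed.

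Across the 15 tumors most members varied together. Pearson's r of log2 CPM was highest for Scd2 with Fads2, at 0.97, and for Acly with Elovl6, at 0.96. Acss2 and Fads1 followed less closely. For Acss2, r ran from -0.71 with Fasn to 0.50 with Fads1, and from -0.15 to 0.56 with the same genes without day 3 replicate 1. Fads1 had r = -0.07 with Fasn and -0.02 with Acaca, and 0.22 and 0.26 without that tumor. These correlations are descriptions over tumors that share harvest days. Among the genes outside the list whose pattern was most like the mean of the 10 standardised members were Lss (r = 0.98), Fdps (0.96), Acat2 (0.96) and Fdft1 (0.96). Lss, Fdps and Fdft1 are enzymes of sterol synthesis, and Acat2 makes acetoacetyl-CoA, from which that pathway starts. Without day 3 replicate 1 they included Lss (0.97), Fdps (0.96), Srebf2 (0.95) and Cyb5b (0.95).

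Genes of cholesterol synthesis and other SREBP2 targets were also mostly lower on day 3 by fitted mean. Of 24 tested, 21 were lower by fitted mean, against 52% of all genes, and 17 at an unadjusted p under 0.05, against 11.7%. Their median log2 fold change was -0.88. Without day 3 replicate 1 all 24 were lower by fitted mean, with a median of -0.76. Srebf2 itself was at 213, 201 and 188 CPM on day 0 and at 79.8, 132 and 115 CPM on day 3. Its day 3 tumors were all below those of day 0, with a log2 fold change of -0.89 ± 0.21 (edgeR adjusted p = 0.115). Leaving out day 3 replicate 1 gave -0.70 ± 0.19. Insig1, which retains the SREBP precursors in the endoplasmic reticulum, had -0.79 ± 0.41, and -1.09 ± 0.45 without that tumor. Scap, the escort of the precursors, had 0.03 ± 0.10, and its sign depended on which tumors were included. EdgeR called 0 genes of this list.

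The remaining genes of fatty acid synthesis and lipid storage were split evenly in direction by fitted mean. Of 45 tested from a list of 47, 22 were higher and 23 lower on day 3, with a median of -0.04 with and without day 3 replicate 1. EdgeR called 0 of them, and 10 were higher and 8 lower at an unadjusted p under 0.05, against 18.3% and 11.7% of all genes. They ran from -1.18 for Acsl3, an acyl-CoA synthetase, to 2.80 for Thrsp, a lipogenic gene of fat tissue that was at 5.48 CPM in day 3 replicate 1 and at 0.66 CPM or less elsewhere. Acacb, the carboxylase that controls fatty acid oxidation, had 0.72 ± 0.26 and 0.32 ± 0.20 without that tumor. Mlxipl, a glucose-responsive activator of the pathway, was at 5.76 CPM in that tumor and at 0.97 CPM or less in the others. Me1, which supplies NADPH, had -0.29 ± 0.21, and -0.04 ± 0.15 without that tumor. The citrate carrier Slc25a1 had -0.04 ± 0.12, and -0.12 ± 0.12 without it. The 25 fatty acid oxidation genes had a median of 0.12, with 18 higher and 7 lower (48% of all genes were higher), and 0.04 without that tumor.

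**Figure D4:**
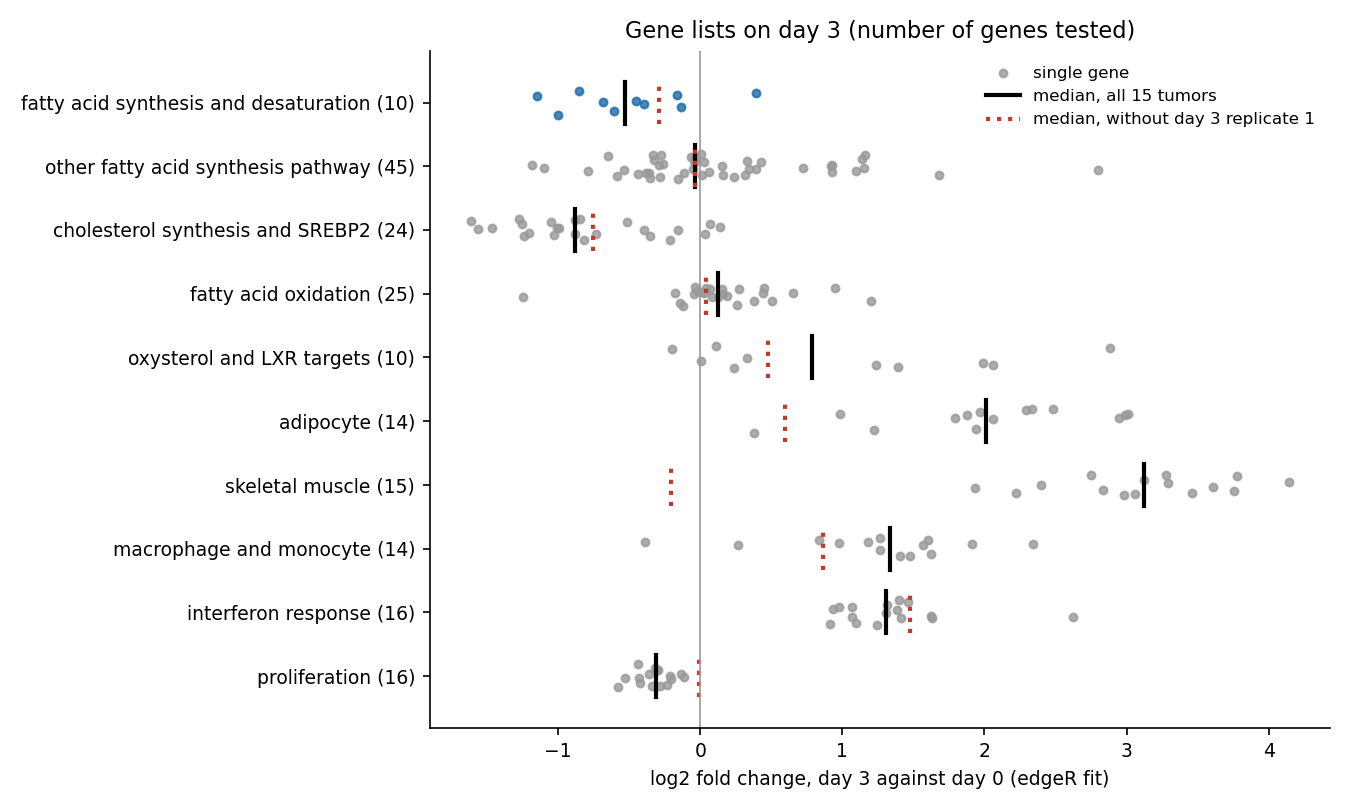
Fitted log2 fold change of single genes, day 3 against day 0 (horizontal axis), by gene list, with the number of genes tested in brackets and the median of each list from all 15 tumors (black) and without day 3 replicate 1 (dotted red). Medians of the 10 members (-0.53) and the cholesterol list (-0.88) lie below 0, the other fatty acid genes center at -0.04, and the muscle and adipocyte medians drop without that tumor.

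Most genes of oxysterol signalling were higher on day 3 by fitted mean. Of 10 oxysterol and LXR target genes, 9 were higher on day 3, against 48% of all genes, with a median of 0.78, or 0.47 without day 3 replicate 1. Nr1h3, which encodes LXR alpha, was at 7.22, 12.4 and 11.5 CPM on day 0 and at 69.8, 31.4 and 28.3 CPM on day 3, a log2 fold change of 2.06 ± 0.61 (edgeR adjusted p = 0.115). With that tumor left out it was 1.53 ± 0.61. Ch25h, the interferon-inducible enzyme that makes 25-hydroxycholesterol, was at 58.1, 53.3 and 59.8 CPM on day 0 and at 16.1, 80.0 and 75.6 CPM on day 3. Its day 3 tumors lay on both sides of day 0, with replicate 1 below. The log2 fold change was 0.01 ± 0.40, and 0.45 ± 0.16 without that tumor.

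Markers of other cells also differed in level on day 3, and their part in the members' levels was not tested. By fitted mean, 48% of all genes tested were higher on that day. The 14 macrophage and monocyte genes had a median log2 fold change of 1.34 (13 of 14 higher), and 0.87 without day 3 replicate 1. Their summed level was 2922 to 3514 CPM on day 0 and 5449.6 to 12569.7 CPM on day 3. The 15 T and NK cell genes had a median of 2.22 (1.40 without that tumor), with 15 of 15 higher, and summed to 97.1 to 144 CPM on day 0 and 278 to 602 CPM on day 3. All 16 interferon response genes were higher by fitted mean, with a median of 1.31, and 1.48 without that tumor. The adipocyte list, whose cells make fatty acids themselves, had a median of 2.01 with 14 of 14 tested genes higher and 0.60 without that tumor. It summed to 55.6 to 114 CPM on day 0 and 142 to 905 CPM on day 3. Plin1, the adipocyte lipid droplet protein, was at 8.70, 2.17 and 0.54 CPM on day 3 and at 0.74 to 1.19 CPM on day 0. The 15 muscle genes had a median of 3.12, and -0.21 without day 3 replicate 1. Fibrosarcoma and mesenchymal markers had medians of 1.25 and -0.12, and the 16 proliferation genes -0.31 and -0.01, with and without that tumor. Of 15 sebaceous gland and skin genes, 6 were tested, with a median of 0.38 (0.46 without that tumor), and Krt1, Awat1, Mc5r and Lor had no more than 3 counts in any tumor. Day 3 replicates 2 and 3 had summed levels above every day 0 tumor for the macrophage list (5449.6 and 5603 CPM) and the T and NK cell list (377 and 278 CPM). Their adipocyte sums (182 and 142 CPM) were also above day 0. By mean log2 CPM, however, the adipocyte list was at 2.13 in replicate 2 and 0.79 in replicate 3, against 0.67 to 1.51 on day 0. Replicate 3 was thus within the day 0 range by that measure. The muscle genes of replicates 2 and 3 summed to 219 and 82.1 CPM, against 131 to 235 CPM on day 0.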

How the data were processed

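Poly(A) RNA of 15 tumors, 3 on each of 5 days, had been sequenced by the authors as single-end reads. The authors estimated transcript abundance with kallisto on GRCm38 and deposited estimated counts per gene, summed with tximport, as whole numbers. The strand setting and transcript set are not given in the sources used here. Kallisto divides ambiguous reads between similar transcripts. An entry whose gene name had become a date, with 0.0268% of counts or less in each tumor, was excluded. Groups came from the time point label. The study counts its replicates as mice and describes the experiment as performed once, so p-values measure the spread between animals of a single experiment. The labels tie no tumor to a named mouse.

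Genes were kept when they passed the study's CPM minimum in at least 3 tumors, which equals 8.68 to 11.7 counts depending on depth. The main test was the edgeR 4.0.16 quasi-likelihood F test (R 4.3.3, TMM factors, two-sided) over all 15 tumors with harvest day as the single term and Benjamini-Hochberg adjustment over 15494 genes. All days shared 1 estimate of the spread. DESeq2 1.42.0, limma 3.58.1 (voom with sample weights), other scalings, no filter, a replicate block and leaving out each tumor were alternatives. Counts by DESeq2 and limma voom and list medians without day 3 replicate 1 were added after the data were seen. The fits were also run on simulated data with the same spread for every gene and no outlying tumor. That setting does not cover a tumor such as day 3 replicate 1. Replicates of a day differed beyond counting noise (chi-square per degree of freedom 9.56 to 284). Coordinates are those of GENCODE M21 on GRCm38, counted from 1. The members, gene lists, named genes and ratios were chosen with earlier results of these data known. Genes named outside the members were fixed regulators, neighbouring steps and tissue markers, the ends of a list's range, and the 5 genes most alike in pattern. Some genes that this rule names are not reported here.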

Additional observations from a re-analysis of the deposited data

Results flagged for a closer look

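Srebf1 and Acly stood on opposite sides of the day 0 mean on day 3 and day 7, and were picked from the members for that reason. Every day 3 tumor was below the day 0 mean and every day 7 tumor above it. The day 7 tumors of Acly still overlapped those of day 0. Against day 0, the log2 fold change on day 7 was small, 0.09 ± 0.08 for Srebf1 and 0.11 ± 0.15 for Acly. The log2 fold change against day 0 was higher on day 7 than on day 3 by 0.26 ± 0.08 for Srebf1 (edgeR adjusted p = 0.0845) and by 0.51 ± 0.15 for Acly (edgeR adjusted p = 0.0832), so neither difference passed edgeR's threshold. DESeq2 gave adjusted p-values of 0.0189 and 0.0143 for the same differences. Because the genes were picked by these same values, the p-values are no independent test of the pattern. Without day 3 replicate 1 edgeR's values were 0.23 ± 0.08 and 0.41 ± 0.14, both with an adjusted p of 0.315. DESeq2 then called neither gene, and limma voom called Acly but not Srebf1.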

How the results depend on the processing

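EdgeR called 0 members in each comparison under RLE factors, library totals only, no filter on low counts and the replicate block. DESeq2 called 3 members on day 3, 5 between days 3 and 7 and 1 in the joint test, where limma voom with sample weights called 1, 6 and 6. The weight of day 3 replicate 1 was 0.0719, the lowest of the tumors. Leaving out single tumors gave 0 to 3 members called between days 3 and 7, with 3 (Scd2, Elovl6 and Fads2) without day 3 replicate 3, and 0 in the other comparisons.

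The median log2 fold change of the members was 0.21 on day 1, -0.29 on day 3 and 0.44 between days 3 and 7 by limma voom. Leaving out single tumors gave -0.20 to 0.17 on day 1, -0.71 to -0.29 on day 3 and 0.41 to 0.80 between days 3 and 7. The last 2 ranges had their smallest sizes without day 3 replicate 1. On day 1 the median kept its sign in 18 of 21 alternatives. It fell below 0 only when certain single tumors were left out, furthest without day 1 replicate 2. Acss2 changed sign: leaving out tumors gave -0.11 to 0.64 on day 3 and -0.68 to 0.14 between days 3 and 7, and limma voom gave 0.027 for the latter. On day 3, leaving out tumors also changed the sign of Scap (-0.021 to 0.10), Slc25a1 (-0.12 to 0.033) and Ch25h (-0.31 to 0.45), and the replicate block gave -0.13 for Ch25h. The causes were not tested.

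Tumors of the same replicate number were no more alike than others in their deviations from the day means. Of same-numbered pairs, 9 of 30 correlated above 0.1, against 28 of 60 differently numbered pairs. The mean r was -0.06 and 0.03 in that order. With the replicate block the median was -0.56 on day 3 and 0.65 between days 3 and 7, and no call changed. With 3 tumors a day, standard errors of the members on day 3 were 0.08 to 0.37 on the log2 scale. Depth limits the rarest markers, such as Adipoq, which had 0 counts in a tumor.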

Other observations

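Tumors of a day differed in the members as much as some days did. On day 7 the summed level of the 10 members was 2750.1, 2349.7 and 2546 CPM, and on day 5 it was 1797, 2064 and 2298 CPM. The cholesterol list ranged likewise, at 2119.7, 1192 and 1442 CPM on day 7. In day 7 replicate 1 Scd2 (891 CPM), Elovl6 (85.8 CPM) and Fads2 (53.1 CPM) had their highest levels of all 15 tumors, as did Insig1 (77.2 CPM).

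Abcg1 and Abca1, cholesterol efflux pumps that LXR activates, had log2 fold changes of 2.89 ± 0.81 and 1.24 ± 0.49 on day 3 (edgeR adjusted p = 0.115 and 0.135), and 2.02 ± 0.77 and 0.50 ± 0.43 without day 3 replicate 1. They were chosen after their values were seen.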
